A study of Mus musculus with 3 samples.

Results

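The type I interferon-stimulated antiviral genes, a list of 40 mouse genes given by name, were examined in single-cell RNA libraries of spleen CD4+ T cells. Of the 40, 39 were in the gene table of 31053 genes, and 38 had at least 10 unique molecular identifiers (UMIs, each 1 captured RNA molecule) over the 3 libraries, as did 13898 genes in all. *Mx2* was not in the gene table, and *Oas1g* had 0 UMIs in every library. The floor of 3 counts, set for a gene at 0, was 0.0808, 0.0256 and 0.0282 counts per 1000000 UMIs (CPM) in the order of the libraries below. This floor is a stand-in for ratios and not an upper limit. Each group was 1 library. The unstimulated WT library (0 h) held Ift20 f/f cells kept in buffer (DPBS). The stimulated WT library held Ift20 f/f cells cultured for 24 h with antibodies to the T cell receptor complex (anti-CD3) and to its costimulator (anti-CD28), each at 1 μg/mL. The stimulated IFT20-KO library held cells of Ift20 f/f CD4 cre mice under that same stimulation. No library was cultured for 24 h without the antibodies, so stimulation cannot be told apart from 24 h of culture. Below, a value with stimulation compares the stimulated WT with the unstimulated WT library, whichever of these lies behind it. The WT controls thus carried the floxed alleles as well, Cre was driven by *Cd4* sequences that are active in all T cells that pass through the CD4-expressing thymic stage, and how many mice gave each library is not stated in the sources used here. All mice were C57BL/6 and, by the methods, male and 5 to 10 weeks old, and the cells were enriched for naïve CD4+ T cells and sorted as 7AAD-CD3+CD4+.

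Type I interferons (IFN-α and IFN-β) bind the receptor IFNAR1-IFNAR2, whose kinases JAK1 and TYK2 activate transcription factors such as STAT2. With IRF9 these form a complex that binds the interferon-stimulated response element and switches on a large set of genes, many of which block virus entry, RNA, protein synthesis or release. Lymphocytes of uninfected animals keep a low, tonic level of this program, and single cells can differ widely in it.

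Depth differed between the libraries. After the filter, 8031, 9903 and 13920 cells with 37133949, 116979076 and 106435143 UMIs remained in the libraries of unstimulated WT, stimulated WT and IFT20-KO cells, with medians of 4627, 12167 and 5014.5 UMIs per cell. The shallowest kept cell had 510, 709 and 1493 UMIs. The pairs of libraries shared 125 to 207 cell barcodes. *Ift20*, the deleted gene, measured 64.4, 76.0 and 6.605 CPM, so the label of the knockout library matched its RNA. All 6 CD4+ T cell markers had UMIs in each library, whereas *C1qa* (macrophages) and *Siglech* and *Klk1* (plasmacytoid dendritic cells) were at 0 in all 3. Summed B cell markers ranged from 144 to 286 CPM, nearly all of it from *Ighm*, myeloid markers from 76.6 to 81.1 CPM, nearly all from *Cst3*, and NK cell markers from 6.06 to 8.21 CPM. The 5 erythroid markers had 1 UMI in all. The plasmacytoid dendritic cell list, which contains the member *Bst2*, ranged from 112 to 183 CPM. Its gene *Irf8* was 16.0-fold higher in stimulated than in unstimulated WT cells and 2.65-fold lower in IFT20-KO than in stimulated WT cells. CD8 T cell markers summed to 28.7, 9.16 and 11.5 CPM in unstimulated WT, stimulated WT and IFT20-KO cells, nearly all of it from *Cd8b1*. Member medians without cells that hold a marker of another type are given in the last section. Beyond that filter, the part of these RNAs in the results below was not tested. With 1 library per group there is no test between groups, and the 95% intervals given cover counting error only.

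Promoters are shown first, because the response element is the sequence through which the list is defined in the textbook pathway. The RefSeq promoter table (GRCm38.p6, from 250 bases before to 50 bases after each start site) held 30 of the 40 members. *Usp18*, *Oas2*, *Mx1*, *Mx2*, *Dhx58*, *Zbp1*, *Parp9*, *Parp14*, *Ifi27l2a* and *Rtp4* had no entry. The response element was searched on both strands as GAAA, then any 2 bases, then GAAAC, and 12 of the 30 members (40%) held it, compared with 0.944% of the 27025 genes in the table. The shorter form, which lacks the last C and so includes every match of the longer, was in 17 of the 30 (56.7%), compared with 3.99% of all genes. A match is a description of the letters and not evidence of binding. The stretches below are from members that differ in the results further on, each on the strand of its gene from 5′ to 3′, with the bases of the shorter motif in capitals, and overlapping matches run together. Capitals that begin with TTTC are a match on the opposite strand. Only bases before the start site are shown.
Ifit1: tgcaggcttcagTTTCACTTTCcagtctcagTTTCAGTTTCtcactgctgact
Ifit3: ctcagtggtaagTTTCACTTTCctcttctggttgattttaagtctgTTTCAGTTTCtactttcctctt
Ifit3b: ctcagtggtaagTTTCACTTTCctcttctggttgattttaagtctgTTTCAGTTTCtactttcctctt
Ifit1bl1: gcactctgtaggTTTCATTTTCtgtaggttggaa
Isg15: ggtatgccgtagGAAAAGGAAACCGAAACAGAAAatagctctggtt
Oas1a: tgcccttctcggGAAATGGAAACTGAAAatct
Oas1g: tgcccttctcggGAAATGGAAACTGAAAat
Rsad2: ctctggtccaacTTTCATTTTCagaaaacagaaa
Bst2: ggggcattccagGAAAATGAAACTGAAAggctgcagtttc
Slfn8: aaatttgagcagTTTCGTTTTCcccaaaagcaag

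These stretches lie at chr19:34640773-34640825 (*Ifit1*, plus strand), chr19:34583361-34583428 (*Ifit3*, plus), chr19:34607757-34607824 (*Ifit3b*, plus), chr19:34602051-34602084 (*Ifit1bl1*, minus), chr4:156200863-156200908 (*Isg15*, minus), chr5:120907526-120907557 (*Oas1a*, minus), chr5:120887614-120887643 (*Oas1g*, minus), chr12:26456551-26456584 (*Rsad2*, minus), chr8:71537575-71537614 (*Bst2*, minus) and chr11:83020837-83020870 (*Slfn8*, minus). *Ifit1* and *Ifit3* each held 2 separate matches, and the printed stretch of *Ifit3b* had the same letters as that of *Ifit3*. *Isg15* held 3 overlapping matches that form 1 run. *Ifih1* and *Ddx58* held their match after the start site. *Ifit2* held no match within this window.

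**Figure D1:**
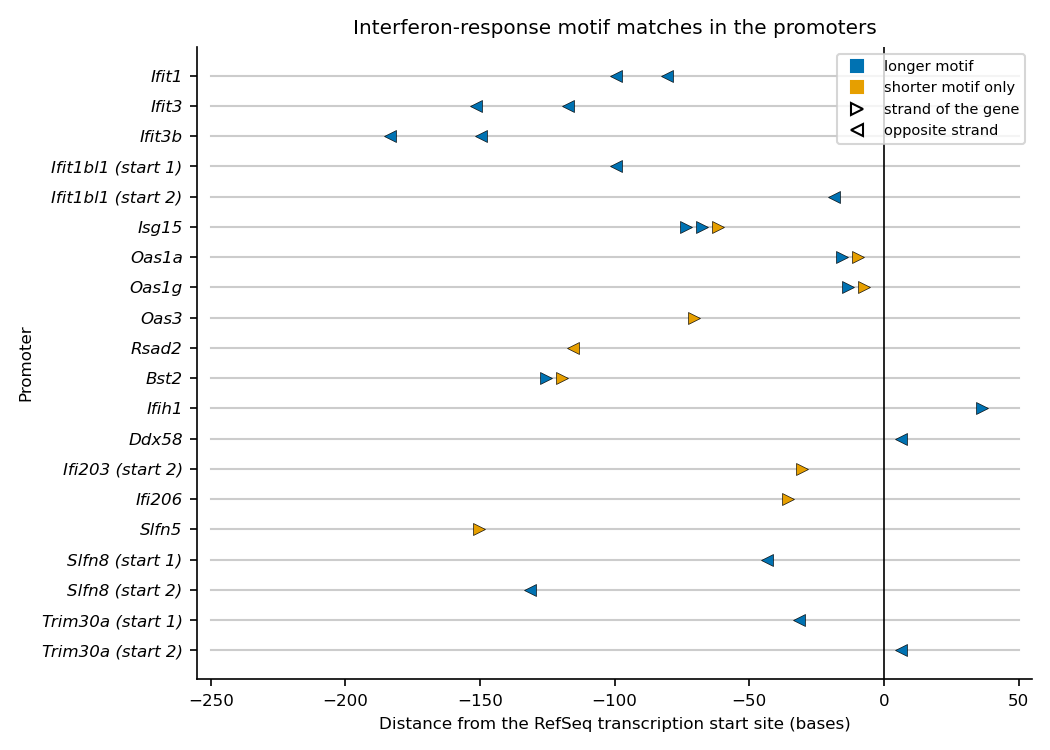
Position of each match of the response element, in bases from the RefSeq start site, for the 17 members that hold one. Blue marks the longer motif and orange the shorter form alone, and the direction of the triangle gives the strand. Most matches lie within 200 bases before the start site, and those of Ifih1, Ddx58 and the second start of Trim30a lie after it.

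The members are clustered in the genome. Coordinates are those of GENCODE M21 on GRCm38, whose genes the table's identifiers name. All 5 IFIT genes lie at chr19:34550694-34650009, within 99.3 kb. *Oas1a*, *Oas1g*, *Oas3* and *Oas2* lie at chr5:120730333-120907521, *Oasl1* and *Oasl2* at chr5:114896936-114937915, the 3 Schlafen genes at chr11:82951349-83122670, *Parp9*, *Dtx3l* and *Parp14* at chr16:35832874-35972605, and *Cmpk2* and *Rsad2* at chr12:26442746-26479837. Near copies can share reads. Among 90-base windows of their transcripts, *Ifit3* shared 35.1% with *Ifit3b*, *Ifit3b* shared 30.5% with *Ifit3*, *Oas1a* shared 43.4% with *Oas1g* and *Oas1g* shared 33.4% with *Oas1a*. The values of these 4 genes are therefore uncertain. *Ifi206*, *Herc6* and *Rtp4* shared 14.7%, 10.6% and 9.75% with other genes, *Ifit1* 4.05%, and *Isg15*, *Usp18*, *Ifit2*, *Bst2* and *Zbp1* shared none.

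Stimulated WT cells held less RNA of this program than unstimulated WT cells, per UMI sequenced. The members summed to 2502 CPM in the unstimulated WT library, 1294 CPM in the stimulated WT library and 1028 CPM in the IFT20-KO library. Per cell and without scaling for depth the order was another, with means of 11.6, 15.3 and 7.86 member UMIs. In the stimulated WT library *Ifi27l2a*, *Ifi47*, *Samhd1*, *Bst2* and *Slfn1* gave 38633, 32268, 25168, 14631 and 8936 of the 151341 member UMIs. In the IFT20-KO library they gave 28710, 20743, 19792, 11289 and 6163 of 109407. Sums of member UMIs per cell and rankings by them, given below, weigh the members with the most UMIs most. Of the 38 members with at least 10 UMIs, 35 were lower in the stimulated WT library, beside 7508 of all 13896 genes with a ratio. By UMIs per cell, however, with no scaling for depth, 28 of the 38 members were lower. On that scale the median of all genes was itself higher, at 1.24. The 7 members that turned to higher there were *Ifi27l2a*, *Ifi35*, *Ifih1*, *Parp14*, *Samhd1*, *Trim30a* and *Zbp1*. The median log2 ratio of the members was −2.70, whereas that of all 13896 genes with a ratio was −0.11. A level at least 2-fold lower was measured for 30 of the 38 members, beside 23.7% of all genes, and one at least 2-fold higher for 0 of 38, beside 18.7% of all genes. The counting interval of the log2 ratio lay below 0 for 34 members. That count was not made for all genes, so no share stands beside it.

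The IFT20-KO library was compared with the stimulated WT library, which both comparisons share, so the sets of ratios are not independent. The median log2 ratio of the members was −0.26, beside 0.14 for all 13891 genes with a ratio. Of the members 27 were lower and 11 higher, beside 4435 lower and 9456 higher of all genes. By UMIs per cell 34 members were lower, and the median of all genes was −0.49. Under median-ratio scaling the median of all genes moved from 0.14 to −0.03 and that of the members to −0.42. Each of these scalings shifts every gene by the same amount. A difference of at least 1.5-fold was measured downward for 9 members, beside 3.97% of all genes, and upward for 5 members, beside 14.0% of all genes. These 5 were *Herc6*, *Mx1*, *Oas2*, *Rsad2* and *Oasl1*. The last 4 rest on few UMIs, namely 13, 6, 3 and 5 in stimulated WT and 28, 10, 5 and 7 in IFT20-KO cells. By UMIs per cell *Oasl1* moved to −0.006. The counting interval lay below 0 for 22 members and above 0 for 4, again with no such count for all genes.

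**Figure D2:**
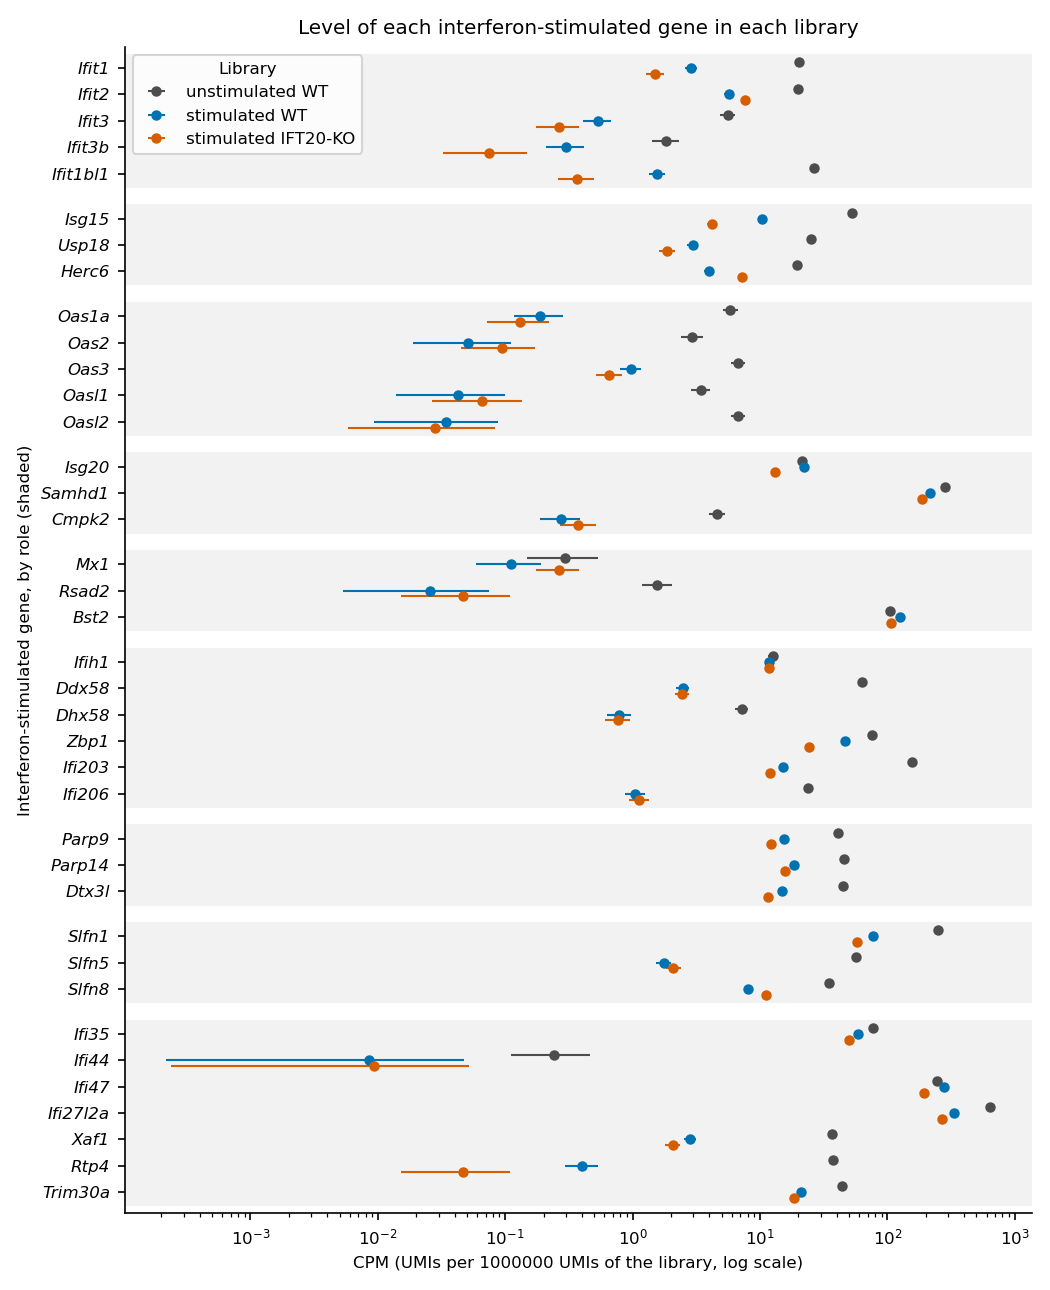
Level of each of the 38 members in CPM on a log axis in the unstimulated WT (grey), stimulated WT (blue) and stimulated IFT20-KO (orange) library, with 95% Poisson intervals for counting error. The genes are grouped by role. The grey points lie to the right for most genes, while the grey and blue points of Bst2, Ifi47, Isg20 and Ifih1 lie close together. The orange points of Isg20 and Ifi47 lie to the left of their grey and blue points.

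The IFIT proteins bind foreign RNA and hold back its translation. *Ifit1*, which recognizes RNA caps that lack methylation, measured 20.2 CPM in the unstimulated WT, 2.89 in the stimulated WT and 1.503 in the IFT20-KO library. *Ifit2* measured 20.04, 5.68 and 7.66 CPM in the same order. *Ifit1bl1*, a gene of the same cluster, measured 26.4, 1.56 and 0.366 CPM. All 5 IFIT genes were lower with stimulation, with log2 ratios from −4.09 (*Ifit1bl1*) to −1.82 (*Ifit2*), and all 5 were lower by UMIs per cell too. The IFT20-KO library differed from the stimulated WT library in both directions within the family. *Ifit1* was 1.92-fold lower in the IFT20-KO library (log2 ratio −0.94, interval −1.22 to −0.67), *Ifit1bl1* was 4.25-fold lower (−2.09, −2.62 to −1.58), *Ifit3* 2.01-fold and *Ifit3b* 3.98-fold lower. *Ifit2* was 1.35-fold higher (0.43, 0.28 to 0.58), a direction that turned under UMIs per cell. *Ifit3* and *Ifit3b* rest on 28 and 8 UMIs in the IFT20-KO library, so their intervals are wide.

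ISG15 is a ubiquitin-like protein that is attached to other proteins, and USP18 removes it and also restrains the interferon receptor. *Isg15* measured 52.6, 10.4 and 4.22 CPM in unstimulated WT, stimulated WT and IFT20-KO cells. The IFT20-KO level was 2.46-fold below the stimulated WT level (log2 ratio −1.30, interval −1.46 to −1.14). *Usp18* showed the same order of libraries, with 25.1, 2.96 and 1.87 CPM. *Herc6*, the main ligase for ISG15 in the mouse, did not follow this order after stimulation. It measured 19.5 CPM unstimulated, 3.98 in the stimulated WT and 7.24 in the IFT20-KO library, a level 1.82-fold above stimulated WT (0.87, 0.70 to 1.03), and higher by UMIs per cell as well (0.24). The ligase and its modifier thus lay on opposite sides of 0 in the knockout comparison.

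The OAS enzymes make 2′-5′-linked oligoadenylates that activate RNase L, and the OASL proteins modulate RNA sensing. Of the 9 role groups this family had the lowest median log2 ratio with stimulation, −5.84. *Oasl2* had 249 UMIs in the unstimulated WT, 4 in the stimulated WT and 3 in the IFT20-KO library. Its log2 ratio with stimulation was −7.62, the lowest of the 38 members, with an interval of −9.50 to −6.24. *Oasl1* measured 3.42 CPM before and 0.0427 after stimulation, *Oas2* 2.94 and 0.0513, *Oas1a* 5.84 and 0.188, and *Oas3* 6.71 and 0.966. All 5 measured genes of the family were thus lower by 2-fold or more. In the IFT20-KO library *Oas3* measured 0.658 CPM, and its interval lay below 0 (log2 ratio −0.55, −1.01 to −0.11). The other 4 had 3 to 14 UMIs there and intervals that include 0, so a difference was not detectable at this depth.

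Among nucleases and nucleotide enzymes, *Samhd1*, which removes the nucleotides that viral reverse transcription needs, was among the members with the smallest differences. It measured 282, 215 and 186 CPM, and its direction with stimulation turned under UMIs per cell (0.96), at 1400 UMIs per cell (0.11), by the mean of per-cell fractions (0.04) and without cells that hold a marker of another type (0.03). *Isg20*, a 3′ to 5′ exonuclease, measured 21.5 CPM unstimulated and 22.0 stimulated, a difference within the counting interval. In the IFT20-KO library it measured 13.0 CPM, 1.69-fold lower (log2 ratio −0.75, −0.85 to −0.66). *Cmpk2*, a mitochondrial nucleotide kinase next to *Rsad2*, had 171, 32 and 40 UMIs.

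Of the genes that restrict viruses at membranes or in replication, *Bst2* stood apart. BST2 (tetherin) holds budding virions at the cell surface, and its RNA measured 105 CPM unstimulated, 125 in the stimulated WT and 106 in the IFT20-KO library. This was the highest log2 ratio with stimulation among the members, at 0.26 (0.21 to 0.31). *Rsad2* (viperin, which makes a chain-terminating nucleotide) had 58, 3 and 5 UMIs, so its ratio with stimulation had an interval of −8.25 to −4.31 on the log2 scale. *Mx1* had 11, 13 and 28 UMIs, or 0.296, 0.111 and 0.263 CPM. Its interval in the knockout comparison lay above 0 (1.24, 0.25 to 2.32).

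The nucleic acid sensors differed widely in their ratios. *Ddx58*, which encodes the RNA sensor RIG-I, measured 62.7 CPM in the unstimulated and 2.48 in the stimulated WT library, 25.3-fold lower. *Ifih1*, which encodes the related sensor MDA5, measured 12.7 and 11.8 CPM (log2 ratio −0.10, interval −0.26 to 0.05). *Dhx58* (LGP2), the regulator of both, measured 7.16 and 0.786 CPM. In the IFT20-KO library *Ddx58* measured 2.43, *Ifih1* 11.8 and *Dhx58* 0.761 CPM, with intervals that include 0 for all 3. *Zbp1*, a sensor of Z-form nucleic acid that can trigger necroptosis, measured 75.1, 46.5 and 24.4 CPM. By UMIs per cell its stimulation ratio turned to 0.66, as did that of *Ifih1* to 1.25. *Zbp1* was 1.91-fold lower in the IFT20-KO library (log2 ratio −0.93). The PYHIN genes *Ifi203* and *Ifi206*, relatives of the DNA sensor AIM2, measured 155 and 24.0 CPM unstimulated and 15.2 and 1.05 CPM stimulated. In the IFT20-KO library they measured 12.1 and 1.13 CPM.

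PARP9, PARP14 and the ubiquitin ligase DTX3L act in ADP-ribosylation and in interferon-dependent transcription. The 3 genes had similar ratios. *Parp9* measured 41.1, 15.5 and 12.1 CPM, *Parp14* 45.3, 18.5 and 15.7 CPM, and *Dtx3l* 44.6, 14.8 and 11.6 CPM. Their log2 ratios lay between −1.59 and −1.29 with stimulation and between −0.35 and −0.23 in the knockout comparison. The stimulation ratio of *Parp14* turned to 0.06 by UMIs per cell.

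The Schlafen genes are best known for the control of lymphocyte quiescence and of codon-dependent translation. *Slfn1*, which restrains T cell proliferation, measured 249, 76.4 and 57.9 CPM. *Slfn5* measured 56.9, 1.75 and 2.09 CPM, a 32.5-fold lower level after stimulation. *Slfn8* measured 35.0, 8.09 and 11.05 CPM, and was 1.37-fold higher in the IFT20-KO than in the stimulated WT library (log2 ratio 0.45, 0.33 to 0.58), a direction that turned under UMIs per cell.

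The 7 remaining members have diverse or less settled roles. *Ifi27l2a*, a mitochondrial or nuclear membrane protein gene, measured 639, 330 and 270 CPM, and *Ifi47*, an immunity-related GTPase gene, 247, 276 and 195 CPM. *Ifi35* measured 77.1, 58.5 and 49.8 CPM and *Trim30a*, a ubiquitin ligase gene, 44.1, 21.1 and 18.4 CPM. By UMIs per cell the stimulation ratios of *Ifi27l2a*, *Ifi35* and *Trim30a* turned to 0.40, 0.95 and 0.29. *Xaf1*, a pro-apoptotic gene, measured 36.9, 2.80 and 2.07 CPM. *Rtp4*, which restrains interferon signaling by binding TBK1, had 1378, 47 and 5 UMIs, or 37.1, 0.402 and 0.0470 CPM. Its log2 ratio in the knockout comparison, −3.10 with an interval of −4.78 to −1.77, was the lowest of the 38 members, though it rests on these 5 UMIs. *Ifi44* had 9, 1 and 1 UMIs, and the intervals of its ratios run from −10.28 to −1.97 with stimulation and from −6.16 to 6.43 in the knockout comparison.

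**Figure D3:**
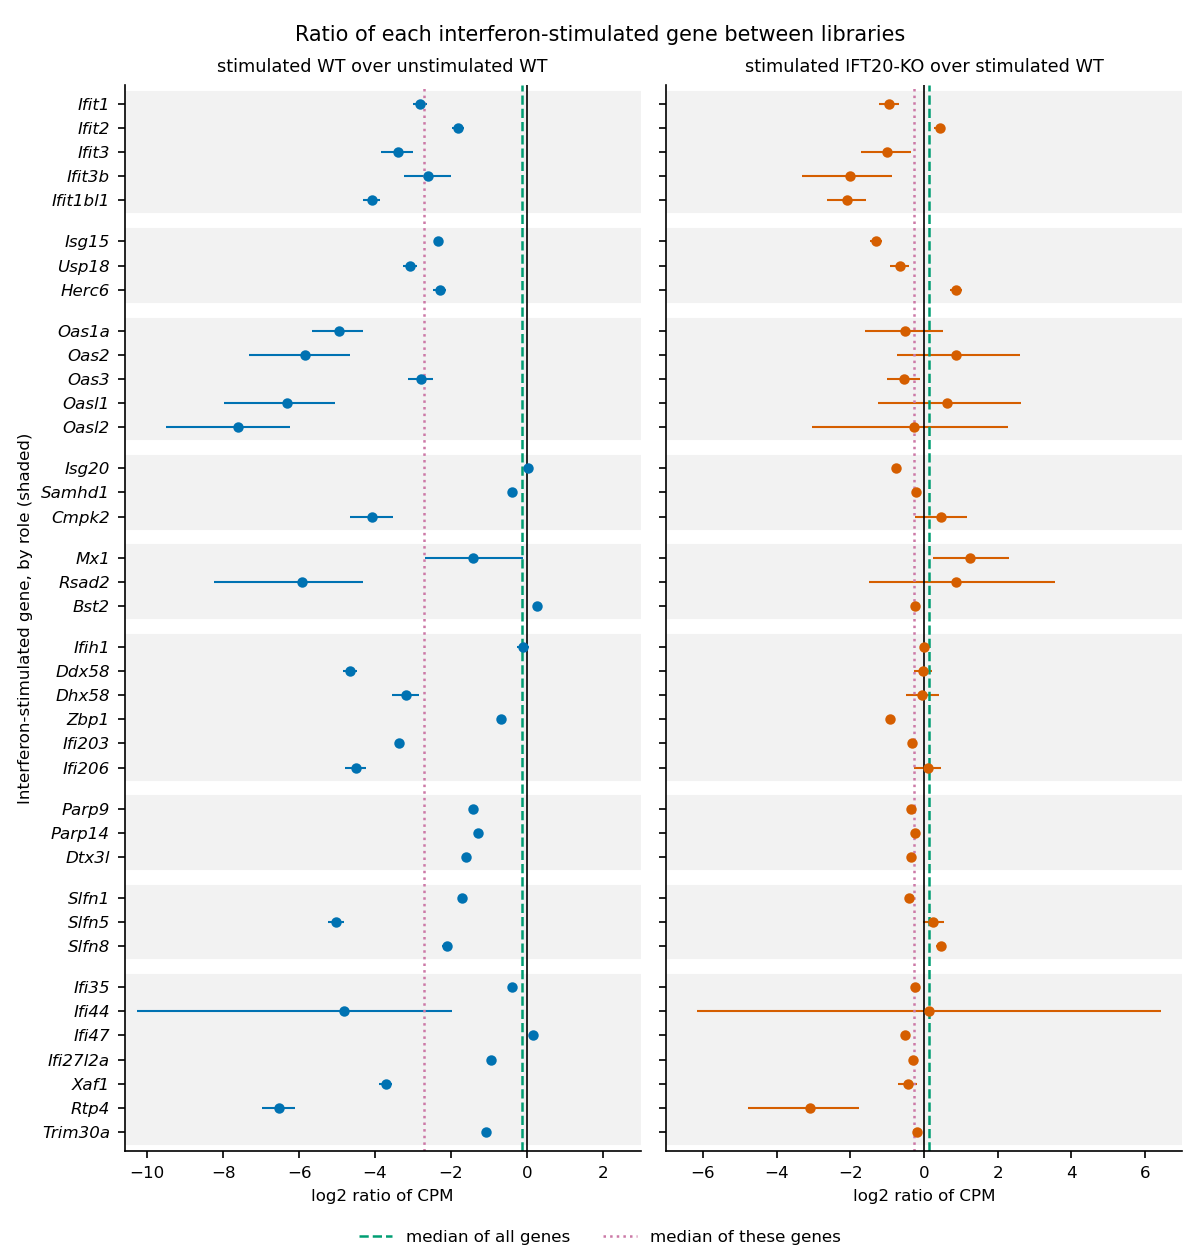
Log2 ratio of CPM of each member, stimulated over unstimulated WT on the left and stimulated IFT20-KO over stimulated WT on the right, with exact 95% counting intervals. The green dashed line is the median of all genes and the pink dotted line that of the members. On the left 35 of 38 points lie below 0, and on the right Rtp4, Ifit1bl1, Ifit3b and Isg15 lie lowest.

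The motif and the ratios were set side by side. Over the 11 measured members with it, the median log2 ratio with stimulation was −2.61, and over the 18 without it −3.08. With the shorter form the medians were −3.08 over 16 members and −1.82 over 13, so the order turned with the form. In the knockout comparison the medians were −0.52 with and −0.22 without the longer motif, and −0.28 and −0.23 for the shorter form.

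The genes that carry the interferon signal were described from a separate list. No UMI of *Ifna1*, *Ifna2*, *Ifna4*, *Ifna5*, *Ifnb1*, *Ifnl2* or *Ifnl3* was found in any library, and *Ifnk* had 2 UMIs in the unstimulated WT library and 0 in the others. *Ifng*, the type II interferon of activated T cells, had 8, 347 and 31 UMIs in unstimulated WT, stimulated WT and IFT20-KO cells, or 0.215, 2.97 and 0.291 CPM. All 5 receptor genes with at least 10 UMIs were lower by 2-fold or more with stimulation, beside 23.7% of all genes. *Ifnar1* measured 73.7, 27.7 and 36.7 CPM and *Ifnar2* 65.0, 30.6 and 36.7 CPM. In the knockout comparison the 5 receptor genes had log2 ratios from 0.22 to 0.40. Both directions depend on the scale: by UMIs per cell 2 of the 5 were higher with stimulation, and all 5 were lower in the IFT20-KO library. The kinase gene *Jak1* measured 344, 177 and 212 CPM, and its log2 ratio with stimulation turned to 0.40 by UMIs per cell.

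Of the transcription factors of the pathway, *Stat2* and *Irf9* were lower with stimulation, at 21.2, 5.59 and 6.85 CPM and at 62.9, 23.4 and 17.2 CPM. *Irf7*, itself an interferon-stimulated gene that amplifies the response, measured 58.2, 1.08 and 0.526 CPM, the lowest stimulation ratio of the 7 factors at −5.76. *Irf1* measured 191, 117 and 69.7 CPM. By UMIs per cell 4 of the 7 factors were higher with stimulation, where the median of all genes was 1.24. On that scale the log2 ratios were −0.57 for *Stat2*, −0.07 for *Irf9*, −4.40 for *Irf7* and 0.64 for *Irf1*. Of the 5 inhibitors, *Socs1* measured 72.7, 91.7 and 72.2 CPM and *Socs3* 75.9, 8.16 and 7.95 CPM.

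The GBP and IRG genes encode GTPases that attack intracellular pathogens and respond chiefly to IFN-γ. With stimulation 7 of the 16 measured genes were higher and 9 lower, with a median log2 ratio of −0.59, beside −2.70 for the antiviral members, and by UMIs per cell 11 were higher. *Gbp2* measured 52.0 CPM unstimulated and 276 in the stimulated WT library. In the knockout comparison all 16 were lower, 11 of them by 1.5-fold or more, beside 3.97% of all genes, with a median of −0.78. All 16 were lower by UMIs per cell too, where the median of all genes was itself −0.49. *Gbp2* measured 120 CPM in the IFT20-KO library. *Ifng* had fewer UMIs there too, as given above, and its part was not tested.

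The spread over single cells was measured at 1 depth, with each cell thinned to 1400 UMIs, which left out 801 unstimulated WT and 421 stimulated WT cells and 0 IFT20-KO cells. A cell then held on average 3.56 member UMIs in the unstimulated WT, 2.05 in the stimulated WT and 1.59 in the IFT20-KO library, with 0 in 6.501%, 23.3% and 25.0% of cells. The share of cells with many member UMIs differed as well. At least 10 member UMIs were found in 252 of 7230 unstimulated WT cells (3.49%, 3.07% to 3.93%), in 101 of 9482 stimulated WT cells (1.07%, 0.868% to 1.29%) and in 7 of 13920 IFT20-KO cells (0.0503%, 0.0202% to 0.104%). The highest cell held 63, 24 and 12 member UMIs, and in the unstimulated WT library 1 cell had UMIs of 23 different members. The variance over the mean, which is 1 for counting noise alone, was 2.89, 2.27 and 1.35. At the same relative spread between cells this value rises with the mean. The means differ, so these values alone do not rank the libraries by spread.

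**Figure D4:**
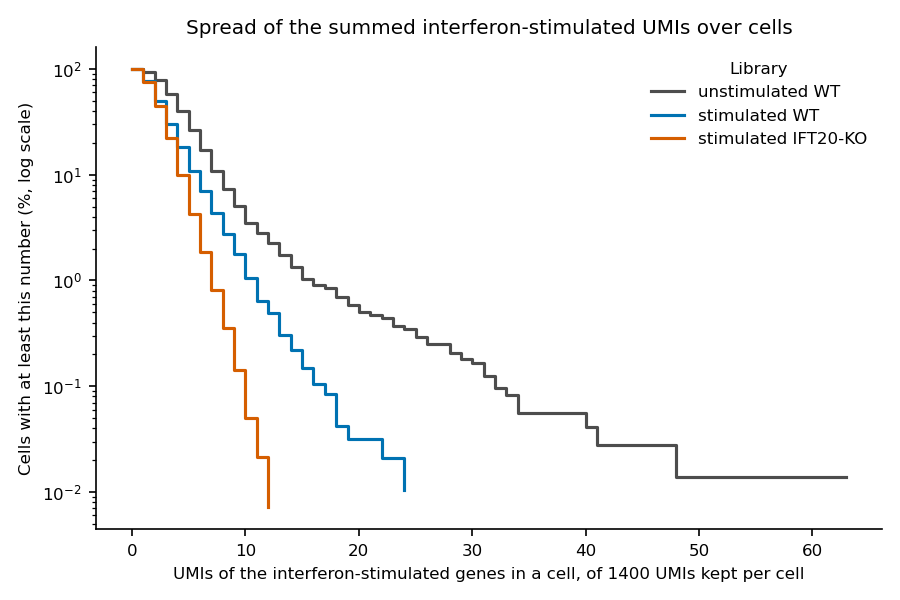
Share of cells, in percent on a log axis, with at least the number of member UMIs on the horizontal axis, at 1400 UMIs per cell in each library. The curve of the unstimulated WT library reaches 63 UMIs, that of the stimulated WT library 24 and that of the IFT20-KO library 12.

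The genes with a wide spread are named at this depth first. In unstimulated WT cells 5 of the 36 members with at least 10 UMIs had a variance over mean of 1.5 or more, namely *Ifit1*, *Ifit3*, *Isg15*, *Rsad2* and *Ifi27l2a*, beside 1.45% of all genes. *Isg15* had a UMI in 5.91% of these cells and up to 16 UMIs in 1 of them, and *Ifit3* had a UMI in 0.692% and up to 6. *Ifit2* had a UMI in 2.71% of cells and never more than 2, with a variance over mean of 1.03. In stimulated WT cells 2 of 28 members were that variable, *Samhd1* at 1.81 and *Ifi27l2a* at 1.53, beside 2.16% of all genes. In IFT20-KO cells it was 0 of 29, beside 1.28%. These counts depend on the depth. At 3000 UMIs per cell they were 7 of 36, 7 of 30 and 2 of 29 members, beside 2.38%, 2.71% and 2.49% of all genes. There *Ifit1*, *Ifit3*, *Ifit3b*, *Isg15*, *Ifi47* and *Ifi27l2a* passed in both WT libraries, *Rsad2* in the unstimulated WT library as well, *Samhd1* in both stimulated libraries and *Ifi27l2a* also in IFT20-KO cells. In stimulated WT cells *Ifit3* and *Ifit3b* rest on only 14 and 12 UMIs at that depth, in 10 and 9 cells. No cell type that lacks these genes was in the sort, so the share that free RNA gives was not measured.

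Each member was then measured in the 5% of cells with the highest share of UMIs from the other members, and in the remaining cells of the same library. In the unstimulated WT library these were 401 cells of the 8031. All 37 members with at least 10 UMIs had a higher CPM in them, with a median of 3.79-fold, whereas the median over all genes was 1.06-fold, and 36 of the 37 were higher by 2-fold or more, beside 10.1% of all genes. Cells of both sets had similar depth, with medians of 4228 and 4648.5 UMIs.

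The size of this ratio varied widely between members of the unstimulated library. *Ifit3* measured 94.3 CPM in the 5% of cells and 1.58 CPM in the others, 59.8-fold, and 152 of its 208 UMIs were in those 401 cells. *Rsad2* (62.7-fold) and *Ifit3b* (65.6-fold) were alike, with wide intervals, and *Mx1* had the highest ratio, 98.4-fold, on 11 UMIs. *Ifit1* measured 243 and 10.1 CPM, 24.1-fold (20.9 to 27.9), *Isg15* 472 and 33.7 CPM, 13.98-fold, and *Rtp4* 232 and 28.3 CPM, 8.19-fold. *Ifit2*, from the same cluster on chromosome 19, measured 43.8 and 19.0 CPM, 2.31-fold (1.78 to 2.96), and *Ifit1bl1* 68.4 and 24.5 CPM, 2.79-fold. *Samhd1* had the lowest value, 1.83-fold.

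Pairs of genes were then counted in single cells. Of 121 unstimulated WT cells with a UMI of *Ifit3*, 47.9% (38.8% to 57.2%) had a UMI of *Ifit1*, compared with 5.04% (4.57% to 5.55%) of the other 7910 cells. For *Isg15* it was 57.0% and 14.01%, and for *Rtp4* 55.4% and 11.6%. For *Ifit2* it was 14.9% (9.06% to 22.5%) and 8.39% (7.79% to 9.03%). The cells with *Ifit3* had a median of 4962 UMIs and the others 4619.

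**Figure D5:**
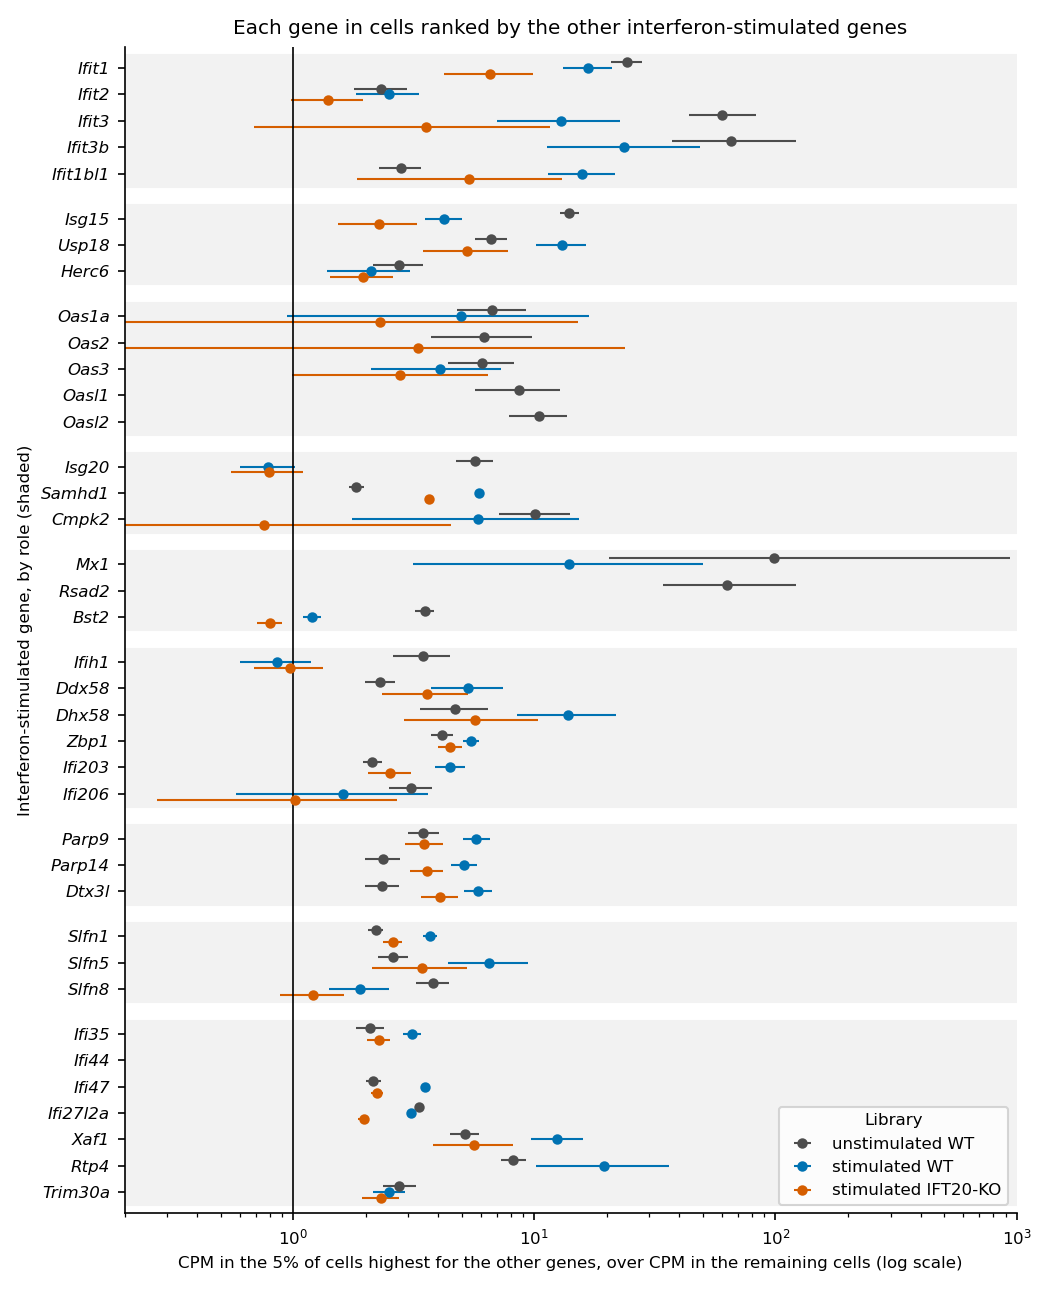
CPM of each member in the 5% of cells with the highest share of UMIs from the other members, divided by its CPM in the remaining cells, on a log axis with exact 95% counting intervals, for members with at least 10 UMIs in the library. Intervals that pass 0.2 are cut off at the axis. Mx1 (11 UMIs in all), Ifit3b, Rsad2, Ifit3, Ifit1 and Isg15 lie farthest right in unstimulated WT cells, and Isg20 lies left of 1 in both stimulated libraries.

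In the stimulated libraries the cells with the highest share of member UMIs also held more RNA of naïve T cell markers. The members with the most UMIs, such as *Ifi27l2a* and *Ifi47*, weigh most in that share. In the stimulated WT library 31 of 33 members had a higher CPM in the 495 cells of the top 5%, with a median of 5.12-fold, beside 1.03-fold for all genes, and 28 were higher by 2-fold or more, beside 17.2% of all genes. *Ifit1* was 16.6-fold higher, *Ifit1bl1* 15.8-fold, *Usp18* 13.0-fold and *Samhd1* 5.89-fold, while *Isg20* (0.789-fold) and *Ifih1* (0.858-fold) had ratios below 1 with intervals that include 1. These cells had a median of 7743 UMIs, compared with 12491.5 in the others. When cells were ranked at 1400 UMIs, the median over 28 members was 2.73-fold and the highest ratio of any of them 7.92-fold. By 2-fold or more 23 of those 28 were higher, beside 11.3% of all genes. In the 495 cells ranked without thinning *Klf2*, a transcription factor of quiescent T cells, measured 512 CPM against 97.7 CPM in the other cells. *Il7r*, the receptor for the survival cytokine IL-7, measured 24.4 against 4.85 CPM. The naïve markers *Ccr7* and *Lef1* were 1.93-fold and 1.58-fold higher. The 5 activation markers did not share 1 direction. *Il2* measured 22.7 against 124 CPM, *Tnfrsf9* 85.9 against 198 CPM and *Cd69* 268 against 304 CPM, whereas *Il2ra* was higher, at 239 against 183 CPM, and *Myc* had a ratio of 0.959 with an interval that includes 1. In the unstimulated WT library the corresponding ratios of *Klf2*, *Il7r*, *Ccr7* and *Lef1* were 1.08, 0.988, 0.917 and 1.01. Of the activation markers there, *Il2ra* was 2.68-fold higher and *Tnfrsf9* had a ratio of 0.260. *Cd69* and *Myc* had ratios of 1.08 and 1.05 with intervals that include 1. *Il2* had 1 UMI in the top cells and 16 in the others. The part of cell state and depth in the member values of the stimulated cells was not tested.

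In the IFT20-KO library the median ratio was smaller. Of 32 members 28 had a higher CPM in the 696 cells of its top 5%, with a median of 2.68-fold, beside 1.08-fold for all genes, or 1.73-fold at 1400 UMIs. By 2-fold or more 23 were higher, beside 15.003% of all genes. Ranked at 1400 UMIs, it was 11 of 29 members, beside 8.82% of all genes. *Ifit1* was 6.56-fold higher (4.23 to 9.87), *Isg15* 2.28-fold and *Ifit2* 1.40-fold (0.977 to 1.94). *Klf2* measured 345 against 87.1 CPM, *Il2* 18.1 against 70.4 CPM and *Il2ra* 259 against 200 CPM in these cells, and *Tnfrsf9*, *Cd69* and *Myc* had ratios of 0.600, 0.766 and 0.870. These cells had a median of 3106.5 UMIs compared with 5319.5 in the others.

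The transcription factors *Irf7* and *Irf9* were higher in the top cells of all 3 libraries. *Irf7* was 6.68-fold, 19.3-fold and 6.45-fold higher in unstimulated WT, stimulated WT and IFT20-KO cells, and *Irf9* 3.04-fold, 2.80-fold and 2.53-fold. *Cd4* had ratios of 1.01, 0.887 and 1.03, and *Ift20* of 0.935, 1.01 and 1.28. The other CD4+ T cell markers did not share 1 direction in the top cells of the stimulated libraries. *Trac* had ratios of 0.511 and 0.671 and *Cd3e* of 0.807 and 0.866 in WT and IFT20-KO cells. In the same order *Cd3d* had 1.08 and 1.02, *Cd3g* 1.09 and 1.06, and *Lck* 0.942 and 1.03.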

How the data were processed

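Per the labels, libraries were made with a 10x Genomics 5′ kit, whereas the methods name a 3′ kit. The authors aligned reads to mm10 and deposited whole-number counts of UMIs per gene and barcode, made with Cell Ranger (3.1.0 in the file headers) and not normalized. No table column belonged to no sample (0 such columns). Barcodes of 200 or fewer genes, or of 15% or more mitochondrial UMIs, were removed by the limits the methods give, which took out 222, 417 and 12 barcodes. Doublets were not removed. UMIs were summed per library and scaled to CPM, with exact Poisson intervals, exact binomial intervals for ratios, and Clopper-Pearson intervals for shares. A gene at 0 was set to 3 counts per library, or per set of cells where cells were ranked. In simulated data the interval held the true ratio for 93.9% of altered genes with a ratio in the stimulation comparison (200 altered among 13297). In the knockout comparison it was 93.5% (200 among 13504). The simulated counts were independent Poisson draws, the model behind the interval. This check therefore does not cover UMIs clumped in cells or differences between libraries. Members with at least 20 CPM in a library are given with each library's value. Only some pathway genes above that limit are given in this way, and *Ift20* is given as the deleted gene. *Ifnk*, *Ifng*, *Rsad2*, *Oasl2*, *Ifit3*, *Ifit3b* and other members below that limit, and the markers named beside the ranked cells, were named after their values were seen. The members and lists were chosen with earlier results of these data known. Some genes of the pathway and marker lists are not reported here, though list counts and sums include them. Alternatives were other scalings, cell filters, depths, gene minimums and the shorter motif. Those chosen after seeing the data were the removal of cells with markers of other types when *Ighm* and *Cst3* are disregarded, stimulated cells with *Il2ra* or *Tnfrsf9* only, and ranking at 1400 UMIs. Python 3.11.15, numpy 2.4.6, scipy 1.17.1, pandas 2.3.3 and matplotlib 3.10.9 were used.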

Additional observations from a re-analysis of the deposited data

How the results depend on the processing

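With 1 library per group no replicate could be left out. No paired analysis was possible because the groups hold 1 library each. Over all alternatives the member medians kept their direction. The stimulation median (−2.70) was −1.35 by UMIs per cell, −2.01 at 1400 UMIs and −1.95 without cells that hold a marker of another type, a filter that kept 28.7%, 24.6% and 35.7% of cells. With *Ighm* and *Cst3* disregarded it was −2.84, and the knockout median −0.26. In stimulated cells with *Il2ra* or *Tnfrsf9* the knockout median was −0.23. Members higher by 2-fold or more were 4 by UMIs per cell and 1 at 1400 UMIs, which is *Ifi44* with 1 UMI unstimulated and 0 stimulated, set to the floor of 3 counts. By UMIs per cell the knockout median was −0.89, with 27 members lower and 1 higher by 1.5-fold or more. On that scale the median log2 ratio of all genes was itself −0.49 in the knockout comparison and 1.24 with stimulation. Members higher by 1.5-fold were 2 in cells of at least 4000 UMIs and 1 among genes with at least 200 UMIs. No share of all genes stands beside the member counts under these alternatives, so they are not compared with all genes. By UMIs per cell, which shifts every gene alike, the called ratios of *Parp14* (0.058) and *Trim30a* (0.29) turned with stimulation, beside the smaller ones named in the report. Other values past 0 come from the floor and are no turn. These are *Ifi44* at 1400 UMIs (1.19) and without marker-bearing cells (0.94), with 1 UMI unstimulated and 0 stimulated, and, without those cells, *Oas2* (−1.13) and *Oasl1* (−2.13) in the knockout comparison, with 0 UMIs in stimulated WT against 2 and 1. The variance over mean was 8.94, 11.9 and 6.83 without thinning and 4.80, 3.92 and 2.06 at 3000 UMIs. The median share of cells with a member's UMI was 3.58%, 0.543% and 0.456% at 1400 UMIs, 10.4%, 2.97% and 1.66% without thinning, and 7.09%, 1.06% and 0.827% at 3000. Ranked at 1400 UMIs, the median fold was 3.46, 2.73 and 1.73.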
